A study of Homo sapiens with 72 samples.

Results

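The genes described here encode 5 proteins that shorten the life of cytokine mRNAs: the ribonucleases ZC3H12A (regnase-1) and ZC3H12C (regnase-3), and the tandem zinc finger proteins ZFP36 (tristetraprolin), ZFP36L1 and ZFP36L2. They were chosen by name, as members of 2 families of mRNA decay factors, with earlier results of these data known, and they are 5 of the 62266 genes of the deposited table. RNA was sequenced from 3 immortalised human lower reproductive tract epithelial lines, each carrying the papillomavirus genes E6 and E7, named Ecto for the ectocervix, Endo for the endocervix and VK2 for the vagina. Cells of each line stayed untreated (NT) or received a polyamine for 4 h, which was putrescine (PUT) at 4 mM or, at 400 µM, spermidine (SPD) or spermine (SPM), and were then cultured for 24 h with live Gardnerella vaginalis (GV, 10000000 colony forming units per well) or without it (noGV). This gives 8 groups per line and 24 groups of 3 libraries, 72 libraries in all, with no primary cells and no other cell types in the cultures. Whether the 3 libraries of a group came from separate cultures is not stated in the labels, and their spread, which the p-values rest on, may be technical.

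Regnases are endonucleases that cut mRNAs at stem-loops in their 3′ untranslated regions, with mRNAs of IL6 and other cytokines among the known substrates, and regnase-1 is itself made in response to NF-kB signalling. ZFP36 and its relatives bind AU-rich elements, short runs built on AUUUA in the 3′ untranslated region, and bring the CCR4-NOT deadenylase to the mRNA, which then loses its poly(A) tail. Both families are best known as brakes on TNF, IL6, chemokine and growth factor mRNAs, and epithelial cells release many of these when they meet bacteria.

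All 5 genes were well covered. Across the 72 libraries the estimated counts ran from 739 to 8224 for ZC3H12A, 314 to 2245 for ZC3H12C, 717 to 8834 for ZFP36, 10993 to 38580 for ZFP36L1 and 4411 to 26361 for ZFP36L2, in libraries of 20152143 to 42767996 counts (median 31872238.5). Each of the 5 passed the filter on low counts in every line. The third Ecto SPD+noGV library stood apart from its group in ZC3H12C and over all genes, and the spermidine counts are given with and without it. Its chi-square per degree of freedom against the other libraries of its group was 42.44 and 39.25, where theirs was 2.74. It stayed in the fit over all Ecto libraries, in which all groups share the estimate of the spread. The standard error of ZC3H12C with G. vaginalis was 0.13 there, against 0.06 in Endo and VK2. The part of this library in it was not tested. In GRCh38 the genes lie at chr1:37474580-37484377 (ZC3H12A, ENSG00000163874.11, plus strand), chr11:110093392-110171841 (ZC3H12C, ENSG00000149289.11, plus), chr19:39406847-39409412 (ZFP36, ENSG00000128016.7, plus), chr14:68787660-68796253 (ZFP36L1, ENSG00000185650.10, minus) and chr2:43222402-43226606 (ZFP36L2, ENSG00000152518.8, minus). ZC3H12C lies inside RDX, a cytoskeletal linker gene on the opposite strand, and how strand entered the counting is not given in the sources used here, so reads of that pair cannot be told apart with certainty.

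Several decay factor mRNAs carry the element that ZFP36 proteins bind, which is why these sites are shown. In the annotated 3′ untranslated regions, the heptamer TATTTAT was found 5 times in ZC3H12C (6104 bases), 3 times in ZFP36 (708 bases), 3 times in ZFP36L1 (1871 bases), 3 times in ZFP36L2 (1917 bases) and 0 times in ZC3H12A (766 bases). The nonamer TTATTTATT, which contains the heptamer, occurred 1 time in each of the 4 genes with a heptamer and 5 times in TNF (799 bases). Of 19539 annotated 3′ untranslated regions, with a median of 1064 bases, 31.481% held the heptamer and 8.44% the nonamer, each searched on the mRNA strand. The 25 bases around the nonamer are given 5′ to 3′ for the 4 members and for TNF and CXCL8, known targets, with the heptamer in capitals. They lie at chr11:110170159-110170183 (plus), chr19:39409198-39409222 (plus), chr14:68788079-68788103 (minus), chr2:43223450-43223474 (minus), chr6:31577992-31578016 (plus) and chr4:73742666-73742690 (plus) of GRCh38.
ZC3H12C: tacacccatTATTTATtagagatat
ZFP36: tgacgacttTATTTATtctaatatg
ZFP36L1: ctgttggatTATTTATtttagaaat
ZFP36L2: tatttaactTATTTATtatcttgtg
TNF: acttgtgatTATTTATtatttattt
CXCL8: gtaaagtatTATTTATttgaatcta
A match is a description of these letters and not a measured binding site.

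ZC3H12A and ZFP36 rose with spermine before the bacteria in all 3 lines, more than the other members in Ecto and VK2, so the 250 bases before their start sites are shown, from RefSeq on GRCh38.p14. The ZC3H12A window, chr1:37474330-37474579 on the plus strand, holds a TATA motif (TATAAA) 27 bases before the start and an EGR motif (GCGTGGGCG or GCGGGGGCG searched) 168 bases before it, both in capitals. The ZFP36 window, chr19:39406597-39406846 on the plus strand, holds neither.
ZC3H12A: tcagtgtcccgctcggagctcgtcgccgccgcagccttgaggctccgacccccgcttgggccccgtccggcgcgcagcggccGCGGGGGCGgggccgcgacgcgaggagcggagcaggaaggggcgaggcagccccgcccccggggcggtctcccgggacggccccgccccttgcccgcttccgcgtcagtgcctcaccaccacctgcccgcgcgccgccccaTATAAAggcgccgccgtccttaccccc
ZFP36: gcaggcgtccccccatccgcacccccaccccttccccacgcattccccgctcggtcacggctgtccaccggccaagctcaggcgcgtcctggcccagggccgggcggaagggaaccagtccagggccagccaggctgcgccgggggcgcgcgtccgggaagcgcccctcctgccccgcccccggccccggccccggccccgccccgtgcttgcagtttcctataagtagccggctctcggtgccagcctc
The GC box GGGCGG was found 5 times in the ZC3H12A window, with 1 copy overlapping the EGR motif, 3 times in the ZFP36 window and 2 times in that of ZC3H12C. Of 35116 RefSeq windows of this length, 10.716% held the TATA motif, 5.368% the EGR motif and 42.639% a GC box, searched on both strands. A window before a RefSeq start of ZFP36L1 (chr14:68793417-68793666, minus), which is not a start in the annotation used for the counts, holds the cyclic AMP response element TGACGTCA 52 bases before that start, a motif in 1.646% of windows. AP-1 sites (TGACTCA or TGAGTCA, 4.203% of windows), CArG boxes (1.159%) and NF-kB motifs (5.206%) were also searched for and were not found in the windows of these 4 genes.

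In untreated cells, ZFP36L1 was the most abundant of the 5 mRNAs and ZC3H12C the least. Levels between genes are given per transcript length, as counts scaled to library size (CPM) for each kilobase of transcript (CPM per kb), and CPM were scaled within each line. In Ecto cells the NT+noGV levels were 292 ± 5.66 CPM per kb for ZFP36L1, 60.01 ± 1.98 for ZFP36L2, 16.1 ± 0.553 for ZFP36, 11.2 ± 0.496 for ZC3H12A and 2.54 ± 0.0584 for ZC3H12C (mean ± SD, n = 3). The same order held in NT+noGV cells of Endo and VK2, and in every group, 24 of 24, ZFP36L1 was highest and ZC3H12C lowest. The middle of the order moved. In SPM+GV cells ZFP36 was the second most abundant in all 3 lines, at 77.3 ± 16.2 CPM per kb in Ecto, 102 ± 11.9 in Endo and 184.5 ± 16.02 in VK2, where ZFP36L2 had been second in every group without bacteria. In Endo, ZFP36 was second in PUT+GV and SPD+GV cells too. There it stood at 79.1 ± 2.86 and 69.1 ± 4.16 CPM per kb, and ZFP36L2 at 70.1 ± 5.51 and 61.8 ± 4.38. The neighbours in that order were not always separate: ZC3H12A stood at 70.8 ± 9.08 CPM per kb in Ecto and 99.2 ± 5.47 in Endo SPM+GV cells, within the spread of ZFP36, and in Endo NT+GV cells ZFP36L2 (68.2 ± 7.54) and ZFP36 (67.7 ± 0.954) also lay within their spread.

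**Figure D1:**
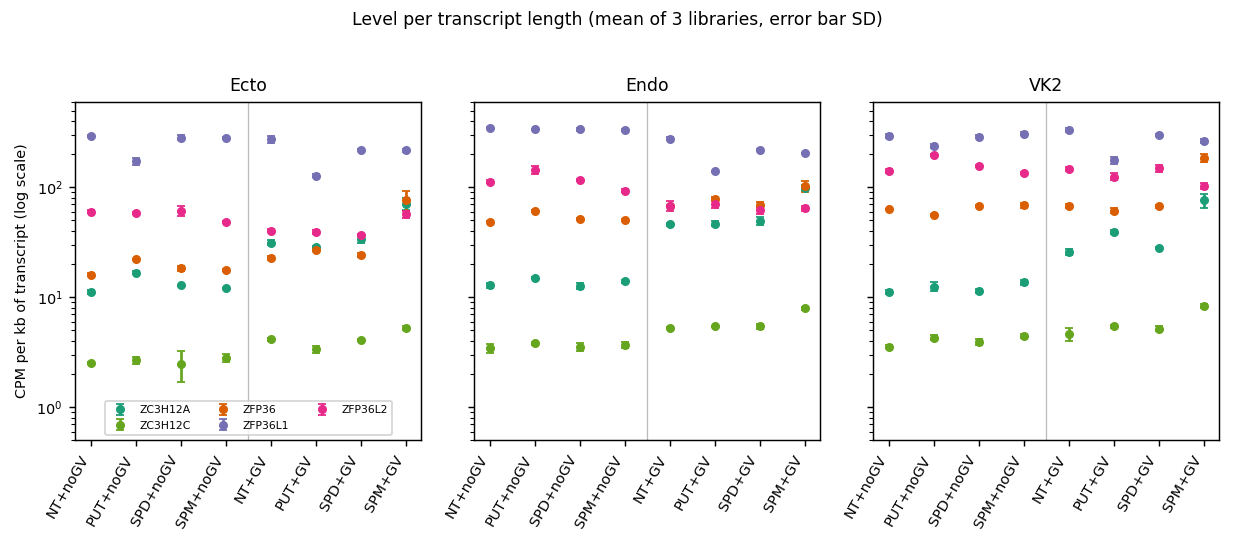
Level of each of the 5 decay factor mRNAs in CPM per kb of transcript (log axis) in the 8 groups of each line, as the mean of 3 libraries with the SD as error bar. ZFP36L1 is at the top and ZC3H12C at the bottom of every group. ZFP36 is in second place in the SPM+GV groups and, in Endo, in PUT+GV and SPD+GV as well.

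Before any treatment, the lines differed most in ZFP36. It stood at 27.1, 28.9 and 28.5 CPM in the 3 Ecto libraries, at 85.04, 85.49 and 85.85 CPM in Endo and at 109.2, 112.4 and 108.4 CPM in VK2, with no overlap between the lines, although CPM were scaled within each line and were not set on 1 scale across them. In a fit over all 72 libraries (edgeR quasi-likelihood test, Benjamini-Hochberg over all genes tested, two-sided, as everywhere here), ZFP36 in Ecto was 3.31-fold lower than in Endo (log2 difference -1.73, adjusted p = 1.45e-27) and 4.497-fold lower than in VK2 (-2.17, adjusted p = 2.51e-32). ZFP36L2 was also lower in Ecto, 2.05-fold against Endo (adjusted p = 1.45e-22) and 2.72-fold against VK2 (adjusted p = 2.41e-29). An adjusted p under 0.05 is called a change in what follows. By that rule 5 of 5 members differed between Ecto and Endo and between Ecto and VK2, all lower in Ecto, and 3 of 5 between Endo and VK2. The Ecto to VK2 call of ZC3H12A (log2 difference -0.20, adjusted p = 0.0228) was lost with upper quartile factors (adjusted p = 0.0681), total counts only (-0.043, 0.63) or no filter on low counts (0.135), and without replicate 3 of all groups (0.211). That of ZFP36L1 (-0.21, adjusted p = 3.63e-05) was lost by total counts only (-0.055, adjusted p = 0.249). With each line scaled on its own, untreated ZC3H12A stood at a mean of 29.66 CPM in Ecto and 29.64 CPM in VK2. Of all 21195 genes tested, 63.9%, 63.8% and 59.6% differed in these 3 contrasts.

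Exposure to G. vaginalis raised the regnases in all 3 lines, and ZC3H12A was the member that rose most. ZC3H12A went from 28.1, 30.4 and 30.5 CPM in Ecto NT+noGV libraries to 78.7, 84.95 and 86.5 CPM in NT+GV libraries. In Endo it went from 35.69, 34.01 and 32.46 to 121.4, 127.4 and 119.6 CPM, and in VK2 from 28.2, 29.6 and 31.2 to 64.9, 73.6 and 67.3 CPM. The groups did not overlap in any line. The folds were 2.81 in Ecto, 3.61 in Endo and 2.31 in VK2 (log2 fold change 1.49 ± 0.07, 1.85 ± 0.06 and 1.21 ± 0.09, estimate ± SE; adjusted p = 7.79e-15, 1.94e-21 and 3.33e-09). In bulk RNA, a change in the level per cell and a change in the number of cells that make the mRNA cannot be told apart.

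ZC3H12C rose less, 1.63-fold in Ecto, 1.52-fold in Endo and 1.31-fold in VK2 (adjusted p = 0.000223, 4.70e-10 and 1.75e-05). ZFP36 rose 1.42-fold in Ecto (28.2 ± 0.967 to 39.8 ± 1.60 CPM, adjusted p = 0.000140) and 1.38-fold in Endo (85.5 ± 0.408 to 118.2 ± 1.67 CPM, adjusted p = 4.36e-08). In VK2 it stood at 110.0 ± 2.10 without and 118.4 ± 5.60 CPM with bacteria (log2 fold change 0.10, 95% confidence interval 0.00 to 0.21, adjusted p = 0.125). The log2 fold changes of RDX, over which ZC3H12C lies, were -0.12 in Ecto, -0.40 in Endo (a fall) and -0.11 in VK2.

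The ZFP36-like pair went another way in Endo, where both fell, and the pair did not move alike in Ecto and VK2. ZFP36L2 fell 1.49-fold in Ecto, from 230.0, 218.7 and 216.2 to 154.3, 145.0 and 148.0 CPM (adjusted p = 1.45e-08), and 1.66-fold in Endo, from 428.4, 411.6 and 412.4 to 279.0, 223.4 and 253.5 CPM (adjusted p = 1.28e-07). The groups did not overlap in either line. In VK2 cells ZFP36L2 was at 524.5 ± 22.1 CPM without and 540.8 ± 22.1 CPM with bacteria (log2 fold change 0.04, 95% confidence interval -0.06 to 0.15). ZFP36L1 changed by less: it fell 1.26-fold in Endo (adjusted p = 8.13e-11) and rose 1.13-fold in VK2 (adjusted p = 0.00212). In Ecto its 3 NT+GV libraries, at 902.6, 780.6 and 792.5 CPM, spread around the untreated mean of 881.2 CPM (log2 fold change -0.09, adjusted p = 0.179), and without the first of them the log2 fold change was -0.16 (adjusted p = 0.0255).

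In all, 4 of 5 members changed with G. vaginalis in Ecto, 5 of 5 in Endo and 3 of 5 in VK2, where 44.6%, 54.4% and 26.4% of all genes tested did. The size of the response differed between lines in the fit over all libraries. It differed for 2 of 5 members between Ecto and Endo, for 5 of 5 between Ecto and VK2 and for 4 of 5 between Endo and VK2, where 28%, 27.5% and 25.8% of all genes did. With each replicate number left out of all groups in turn, these counts were 1 to 2, 3 to 4 and 4, with 1 for Ecto and Endo without replicate 1 or 3 and 3 for Ecto and VK2 without replicate 2 or 3. The ZC3H12A response in Endo exceeded that in VK2 by 0.66 on the log2 scale (adjusted p = 1.82e-06), and the ZFP36L2 response in Endo lay 0.76 lower than in VK2 (-0.76, adjusted p = 3.78e-10).

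**Figure D2:**
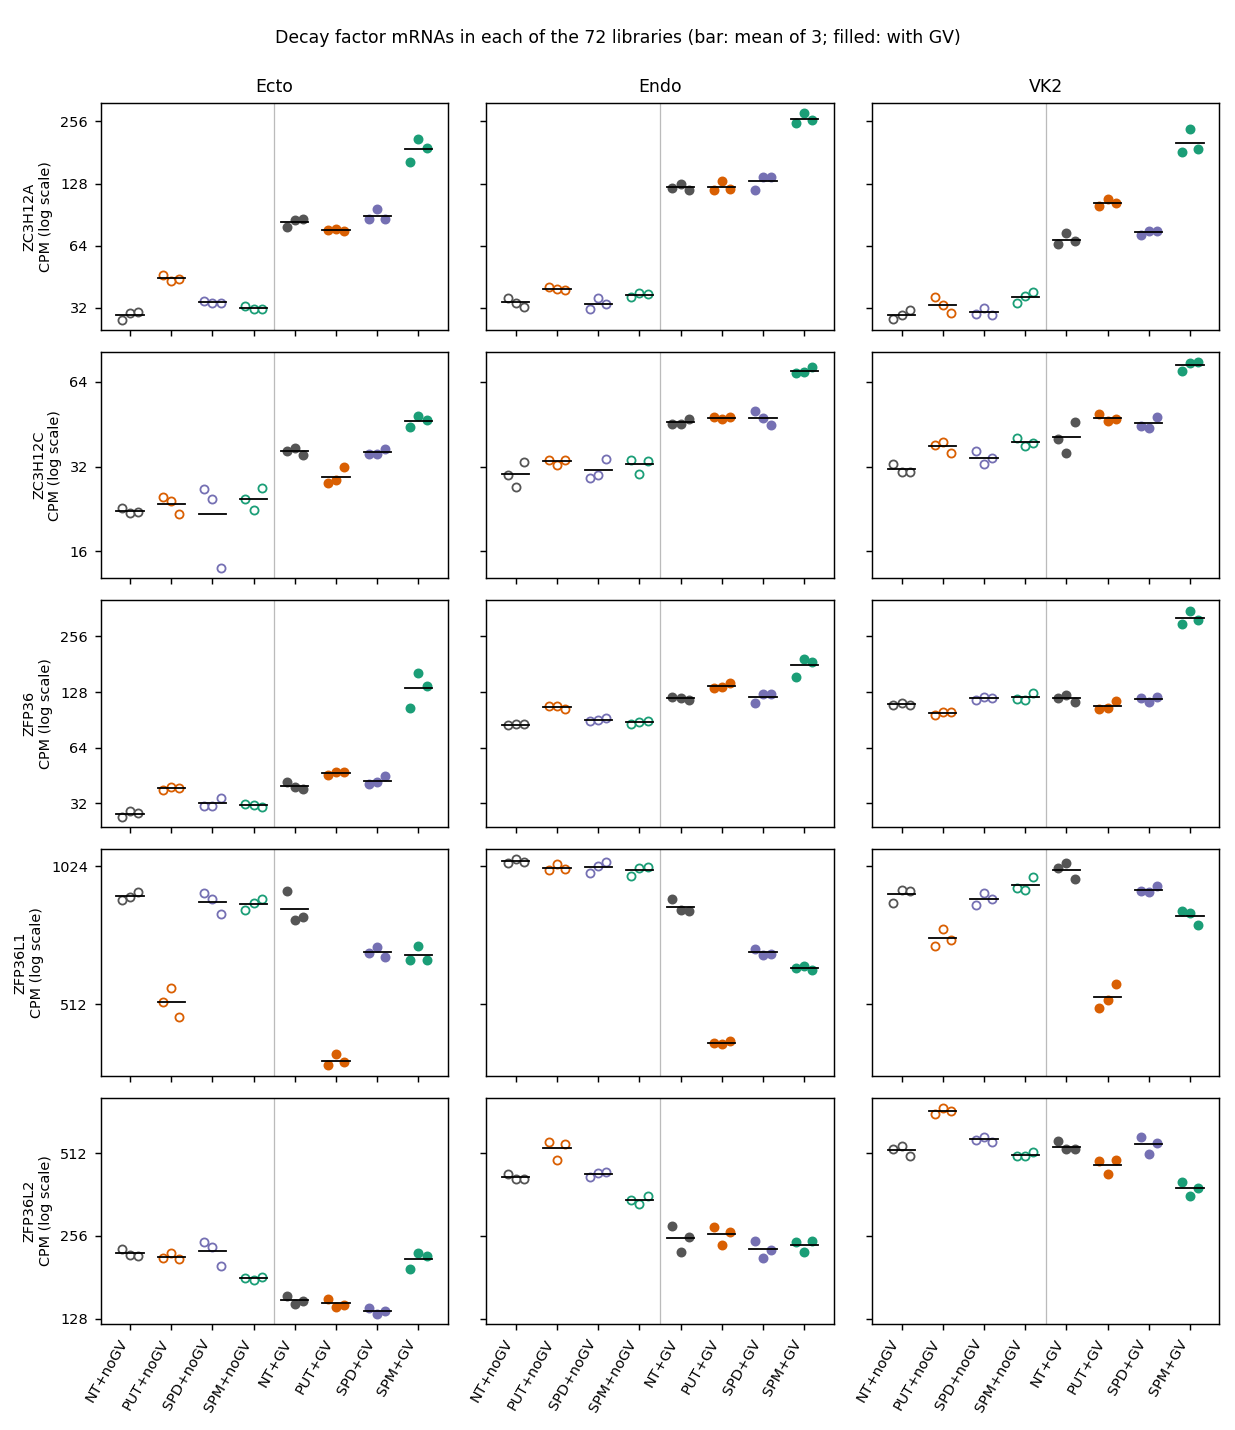
CPM of each decay factor mRNA (log axis) in every library, by line and group, with 1 point per library, open without and filled with G. vaginalis, and a bar for the mean of 3. ZC3H12A rises with G. vaginalis in all 3 lines and again with spermine before it, and ZFP36L1 is lowest in the PUT+GV libraries.

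The known targets of these proteins rose with the bacteria too. Of a list of 17 cytokine and related mRNAs known as targets of regnases or ZFP36 proteins, 16 were tested in Ecto and 15 in Endo and VK2, and 14, 14 and 14 of them rose (median log2 fold change 1.95, 2.58 and 1.93, against 0.00 over all genes in each line). None fell in Ecto or Endo, and 1 fell in VK2. Of all genes 44.6%, 54.4% and 26.4% were called in either direction. CXCL1, a neutrophil-attracting chemokine, rose 8.74-fold in Ecto, from 4.35 ± 0.506 to 38.1 ± 2.92 CPM, and 8.52-fold in VK2. CCL20, which attracts dendritic cells and lymphocytes, rose 20.6-fold in Endo, from 2.02 ± 0.430 to 42.1 ± 5.45 CPM. NF-kB target and feedback genes, several of whose products restrain the pathway, rose in 8 of 9, 9 of 9 and 9 of 9 cases, among them TNFAIP3 (1.99-fold in Ecto, 5.45-fold in Endo and 3.74-fold in VK2).

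The machinery that the decay factors recruit changed by little, and its direction in Ecto and Endo depended on how the libraries were scaled. The counts of its lists with G. vaginalis are read against the 44.6%, 54.4% and 26.4% of all genes called in Ecto, Endo and VK2, and a count near its share is no result about a list. Of 18 deadenylation genes, 7 fell and 0 rose in Ecto, 10 fell and 2 rose in Endo, and 7 fell and 1 rose in VK2, with medians of -0.12, -0.12 and -0.10 on the log2 scale. Scaled by total counts only, which raised all log2 fold changes with G. vaginalis alike within Ecto and within Endo, the counts were 4 up and 2 down in Ecto and 3 up and 7 down in Endo. PAN2, the catalytic subunit of the PAN2-PAN3 deadenylase, fell 1.53-fold in Ecto and 1.48-fold in Endo. Of 15 exosome and SKI complex genes, which degrade mRNA from its 3′ end, 10 fell in Ecto, 4 fell and 4 rose in Endo, and 3 fell and 1 rose in VK2, whereas by total counts only 6 fell and 3 rose in Ecto and 3 fell and 7 rose in Endo. SKIC3, the scaffold of the SKI complex, fell 1.63-fold, 1.41-fold and 1.16-fold. UPF1, a helicase through which regnase-1 acts, rose in each line, by 1.39-fold, 1.69-fold and 1.09-fold, while of the 10 genes of its decapping and 5′ decay list 3 rose and 2 fell in Ecto, 4 and 4 in Endo, and 2 and 1 in VK2. Of 9 other proteins that bind AU-rich elements or stem-loops, and of which some act against decay, 0 rose and 3 fell in Ecto, 1 rose and 5 fell in Endo and 0 rose and 3 fell in VK2, and by total counts only 1 rose and 0 fell in Ecto. Of the regnase relatives, 2 of 4 tested fell in Ecto, 2 of 3 in Endo and 0 of 4 in VK2, with N4BP1 falling 1.38-fold in Ecto and 1.51-fold in Endo. Of 10 kinases, phosphatases and other regulators of the decay factors 3 rose and 5 fell in Ecto, 3 and 4 in Endo and 2 and 1 in VK2, and of 8 targets outside the cytokines 4 and 4, 3 and 4, and 4 and 3.

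**Figure D3:**
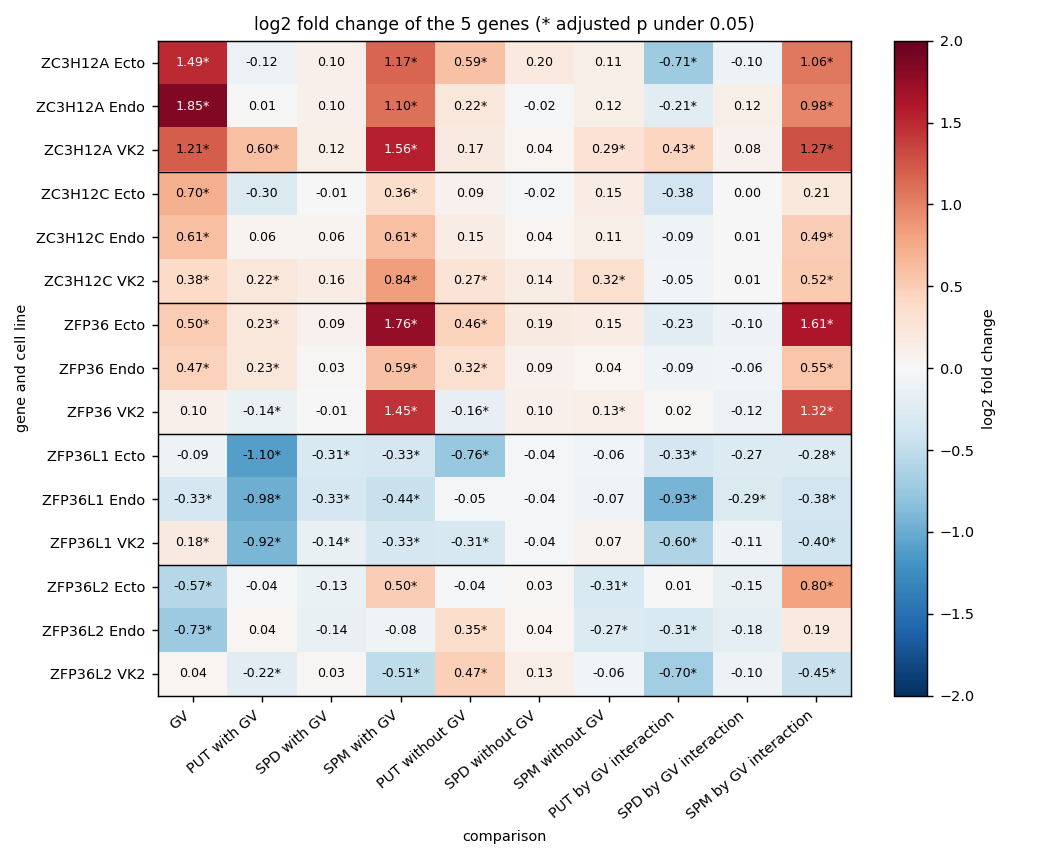
Heat map of the log2 fold change (red up, blue down) of each decay factor mRNA in each line, with comparisons in columns and an asterisk where the adjusted p is under 0.05. The regnases and ZFP36 are red with spermine before G. vaginalis in all 3 lines, and ZFP36L1 is blue with each polyamine before it.

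Spermine before G. vaginalis raised ZC3H12A and ZFP36 in all 3 lines above their levels with the bacteria alone. Against NT+GV, ZC3H12A rose to 162.4, 210.4 and 190.5 CPM in Ecto, to 251.2, 279.4 and 259.1 CPM in Endo and to 181.3, 235.4 and 188.3 CPM in VK2. Every SPM+GV library lay above every NT+GV library of its line. The folds over NT+GV were 2.25, 2.14 and 2.95 (log2 fold change 1.17 ± 0.07, 1.10 ± 0.05 and 1.56 ± 0.08; adjusted p = 5.43e-14, 7.58e-17 and 1.99e-12).

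ZFP36 had its largest fitted rise in Ecto, where it had been lowest. It stood at 105.4, 161.6 and 138.2 CPM in the Ecto SPM+GV libraries against 41.6, 39.4 and 38.5 CPM in NT+GV, a 3.39-fold rise (adjusted p = 9.09e-14). In VK2 it stood at 298.2, 353.0 and 315.7 against 119.0, 123.7 and 112.6 CPM, a 2.73-fold rise (adjusted p = 3.06e-21). In Endo it stood at 155.0, 194.5 and 185.4 against 119.9, 118.3 and 116.6 CPM, a 1.51-fold rise (adjusted p = 8.16e-10). The groups did not overlap in any line, and the Ecto rise exceeded the Endo rise by 1.13 on the log2 scale (adjusted p = 3.53e-13). Its excess over the VK2 rise (0.33, adjusted p = 0.00948) was lost with upper quartile factors, total counts only or no filter. It was also lost without replicate 2 or 3 of all groups (adjusted p = 0.219 and 0.2315).

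ZC3H12C, which has a low level throughout, rose to 68.6, 69.0 and 72.2 CPM in Endo (1.52-fold, adjusted p = 3.31e-10) and to 70.1, 74.5 and 75.2 CPM in VK2 (1.79-fold, adjusted p = 2.30e-13). In Ecto it rose 1.28-fold, to 44.3, 48.3 and 47.01 from 36.4, 37.3 and 35.1 CPM (adjusted p = 0.0228). That Ecto call was lost without the first NT+GV library (log2 fold change 0.35, adjusted p = 0.0586), without the third (0.33, 0.0748) or without the second SPM+GV library (0.33, 0.0736), and by total counts only (0.29, 0.0648). RDX, on the other strand, fell in Ecto and VK2 (-0.33 and -0.16) and was at -0.09 in Endo.

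ZFP36L1 fell in all 3 lines with spermine and bacteria, 1.26-fold in Ecto, 1.36-fold in Endo and 1.26-fold in VK2 (adjusted p = 1.58e-05, 3.47e-13 and 4.60e-08). ZFP36L2 moved in opposite directions: it rose 1.41-fold in Ecto, from 154.3, 145.0 and 148.0 to 193.8, 220.7 and 216.1 CPM (adjusted p = 7.66e-08), and fell 1.42-fold in VK2, from 566.3, 528.4 and 527.7 to 403.1, 356.4 and 383.4 CPM (adjusted p = 1.81e-09). In Endo it stood at 251.9 ± 27.8 and 237.7 ± 11.6 CPM (log2 fold change -0.08, 95% confidence interval -0.24 to 0.08). The Ecto and VK2 responses of ZFP36L2 differed by 1.01 on the log2 scale (adjusted p = 2.79e-14).

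Of the 5 members, 5, 4 and 5 changed with SPM+GV against NT+GV in Ecto, Endo and VK2, and 56%, 43% and 58.3% of all genes tested did. The spermine effect differed between lines for 2 of 5 members (Ecto and Endo), 4 of 5 (Ecto and VK2) and 3 of 5 (Endo and VK2), where 25.8%, 31.6% and 24.6% of all genes did. With each replicate number left out in turn these counts were 2 to 3, 2 to 3 and 3 to 4, with 2 for Ecto and VK2 without replicate 2 or 3. The summed level of 8 epithelial marker genes was lowest in the SPM+GV group of each line, at a mean of 6698 CPM in Ecto, 10760 in Endo and 21930 in VK2, and its part in these results was not tested.

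Without bacteria, spermine moved few members and by less. ZFP36L2 fell 1.24-fold in Ecto (from 221.6 ± 7.33 to 179.2 ± 2.43 CPM, adjusted p = 0.000315) and 1.21-fold in Endo (from 417.4 ± 9.48 to 345.8 ± 12.3 CPM, adjusted p = 0.0158). The Endo call was lost without the first NT+noGV library (adjusted p = 0.0645) or without the first or the second SPM+noGV library (adjusted p = 0.0569 and 0.0758), and ZC3H12C was called there as well without the third NT+noGV library (0.20, adjusted p = 0.0386). In VK2, ZC3H12C rose 1.25-fold (adjusted p = 0.000159), ZC3H12A 1.22-fold (0.0205) and ZFP36 1.10-fold (0.0401). The VK2 call of ZC3H12A was lost without the first or second NT+noGV library or the second or the third SPM+noGV library (adjusted p up to 0.0998). That of ZFP36 was lost on leaving out any of its 6 libraries but the second SPM+noGV library (adjusted p up to 0.278), and it was lost as well by DESeq2, with upper quartile factors, by total counts only and with a filter of 1 CPM in 3 libraries (adjusted p = 0.0518 to 0.0794). That makes 1, 1 and 3 of 5 members called, against 23.5%, 18.1% and 33% of all genes.

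The effect of spermine depended on the bacteria for most members. The interaction, the log2 difference between the effect of spermine with and without G. vaginalis, was 1.06, 0.98 and 1.27 for ZC3H12A (adjusted p = 2.54e-09, 6.99e-11 and 1.10e-07) and 1.61, 0.55 and 1.32 for ZFP36 (adjusted p = 1.20e-09, 4.53e-06 and 2.29e-15) in Ecto, Endo and VK2. ZFP36L1 had negative interactions of -0.28, -0.38 and -0.40. ZFP36L2 had 0.80 in Ecto and -0.45 in VK2, and ZC3H12C 0.49 in Endo and 0.52 in VK2. In all 4, 4 and 5 of 5 members had an interaction, against 36.3%, 24.3% and 38.9% of all genes.

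Spermidine and spermine are linear polyamines of which spermine carries one more aminopropyl unit and amine, and they were given at the same dose and for the same time, so they can be compared directly. With bacteria, SPM exceeded SPD for ZC3H12A in all 3 lines: the SPD+GV libraries stood at 86.1, 96.8 and 86.1 CPM in Ecto, 119.6, 137.9 and 137.7 in Endo and 72, 75.5 and 75.6 in VK2, below every SPM+GV library. The ratio of SPM+GV to SPD+GV was 2.10, 2.00 and 2.71 for ZC3H12A (adjusted p = 4.49e-13, 6.64e-16 and 8.54e-12) and 3.19, 1.48 and 2.75 for ZFP36 (adjusted p = 2.99e-13, 2.12e-09 and 2.51e-21). ZC3H12C was 1.46-fold higher with spermine in Endo and 1.61-fold higher in VK2 (adjusted p = 2.38e-09 and 2.41e-11). In Ecto it was 1.29-fold higher (adjusted p = 0.0197), a call lost without the second SPD+GV library (adjusted p = 0.0625) or the second SPM+GV library (adjusted p = 0.0655), with upper quartile factors (0.0504) and by total counts only (0.099).

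ZFP36L1 was 1.08-fold lower with spermine than with spermidine in Endo and 1.14-fold lower in VK2 (adjusted p = 0.00343 and 0.000304). In Ecto its log2 difference was -0.02 (95% confidence interval -0.14 to 0.09). ZFP36L2 was 1.54-fold higher with spermine in Ecto and 1.45-fold lower in VK2 (adjusted p = 1.76e-09 and 9.44e-10), and its log2 difference in Endo was 0.06 (95% confidence interval -0.10 to 0.22). These are 15 comparisons of the pair with bacteria, of which 4, 4 and 5 of 5 per line were called, where 53.8%, 44.6% and 52.6% of all genes were.

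Without bacteria, ZFP36L2 was lower with spermine than with spermidine in all 3 lines (log2 difference -0.33, -0.31 and -0.19, adjusted p = 0.000194, 0.00895 and 0.00552). The Endo call was lost without the second SPM+noGV library (adjusted p = 0.0586), and the Ecto call in a fit of only the groups compared (-0.34, adjusted p = 0.057). On leaving out each library in turn, the Ecto log2 difference ran from -0.42 to -0.28 (adjusted p up to 0.0019). In VK2, ZC3H12A and ZC3H12C were 1.19-fold and 1.13-fold higher with spermine (adjusted p = 0.0480 and 0.0316). Each of these VK2 calls was lost on leaving out 5 of its 6 libraries in turn, with adjusted p up to 0.176 for ZC3H12A, which kept it only without the first SPM+noGV library, and up to 0.171 for ZC3H12C, which kept it only without the first SPD+noGV library. By total counts only both were lost as well (adjusted p = 0.0536 and 0.0876), and with upper quartile factors that of ZC3H12A (0.0595). In these 15 comparisons 1, 1 and 3 of 5 members were called, against 20.4%, 12.6% and 28.3% of all genes.

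Against NT+GV, spermidine itself changed a single member, ZFP36L1, which fell in each line. In Ecto it stood at 661.3, 682.5 and 650.4 CPM against 902.6, 780.6 and 792.5 in NT+GV (1.24-fold lower, adjusted p = 0.000658), and in Endo at 675.8, 656.3 and 659.9 against 866.9, 819.8 and 816.0 CPM (1.26-fold lower, adjusted p = 1.46e-08). In VK2 it stood at 901.8, 898.3 and 928.0 against 1012, 1040 and 959.8 CPM (1.10-fold lower, adjusted p = 0.0232). The groups did not overlap, but the VK2 call was lost without the first or second NT+GV library or the first or second SPD+GV library (adjusted p = 0.0622 to 0.0978), with upper quartile factors, by total counts only and in a fit of only the groups compared (0.0591 to 0.0754). On leaving out 1 library, ZFP36L2 (-0.22, adjusted p = 0.0452) was also called in Endo without the second NT+GV library, ZC3H12A (0.16, 0.018) in Endo without the first SPD+GV library and ZC3H12C (0.26, 0.00372) in VK2 without the third NT+GV library. With 1 of 5 members called in each line, the shares of all genes were 13.1%, 13.9% and 12.7%.

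Without bacteria spermidine changed 0 of 5 members in each line by the edgeR test, with 1, 0 and 3 members at an unadjusted p under 0.05, and DESeq2 called 0, 0 and 0. Of all genes 0.303%, 0.181% and 0.46% were called. The third Ecto SPD+noGV library stood apart from the other libraries of its group, with ZC3H12C at 13.96 CPM against 26.6 and 24.6 CPM, and without it the Ecto count was also 0. The spermidine by G. vaginalis interaction was called for 0, 1 and 0 of 5 members (3.13%, 3.45% and 0.352% of all genes; 1, 1 and 0 members at an unadjusted p under 0.05), the Endo call being ZFP36L1 at -0.29. Without that Ecto library, ZFP36L1 (-0.31, adjusted p = 0.00886) and ZFP36L2 (-0.24, adjusted p = 0.0234) were called in Ecto as well. DESeq2, with all libraries, called 1 member in Ecto. The spermidine effect with bacteria differed between lines for 0 of 5 members in each pair of lines (0.722%, 5.16% and 1.13% of all genes), with 0, 1 and 2 members at an unadjusted p under 0.05, and DESeq2 called 0, 0 and 0. Without replicate 3 of all groups ZC3H12C was called between Ecto and VK2 (-0.28, adjusted p = 0.0449).

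Putrescine was given at 4 mM, a higher dose than the 400 µM of the other polyamines, and is set beside them without a comparison. Its clearest result was ZFP36L1. In PUT+GV libraries ZFP36L1 stood at 377.1, 399.0 and 382.8 CPM in Ecto against 902.6, 780.6 and 792.5 in NT+GV, at 422.8, 420.1 and 425.6 against 866.9, 819.8 and 816.0 in Endo, and at 501.7, 523.1 and 568.2 against 1012, 1040 and 959.8 in VK2. The groups were far from overlapping in each line. The level was 2.14-fold, 1.97-fold and 1.89-fold lower (log2 fold change -1.10 ± 0.06, -0.98 ± 0.03 and -0.92 ± 0.04; adjusted p = 3.14e-14, 3.14e-21 and 7.07e-18), and these calls held without each library in turn.

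Putrescine moved the other members by less and not alike in the 3 lines. ZC3H12A rose 1.51-fold in VK2, from 64.9, 73.6 and 67.3 to 99.1, 108.1 and 103.4 CPM (adjusted p = 2.64e-06), and stood at 76.6 ± 0.848 against 83.4 ± 4.11 CPM in Ecto (log2 fold change -0.12, 95% confidence interval -0.26 to 0.01) and 123.8 ± 6.83 against 122.8 ± 4.10 CPM in Endo (0.01, -0.09 to 0.11). A fall of ZC3H12A in Ecto was called by DESeq2 (-0.18, adjusted p = 0.0266) and in a fit of only the groups compared (-0.17, adjusted p = 0.00146). The VK2 response of ZC3H12A exceeded that of Ecto by 0.77 (Ecto minus VK2 -0.77, adjusted p = 5.91e-09). ZFP36L2 fell 1.17-fold in VK2 (adjusted p = 0.000393), a call lost by total counts only (log2 fold change -0.035, adjusted p = 0.577), and ZC3H12C rose 1.17-fold there (adjusted p = 0.00215), a call lost without the second NT+GV library (log2 fold change 0.13, adjusted p = 0.0552).

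ZFP36 rose 1.17-fold with putrescine in Endo (adjusted p = 0.000770). In Ecto it rose 1.17-fold (adjusted p = 0.0374), a call lost by DESeq2 (adjusted p = 0.147), with upper quartile factors (0.0523), with a filter of 1 CPM in 3 libraries (0.0673) and without the second or the third NT+GV library or any of the 3 PUT+GV libraries (adjusted p up to 0.212). In VK2 it fell 1.10-fold (adjusted p = 0.0169), with groups that overlapped. That call was lost with upper quartile factors (adjusted p = 0.593), with a filter of 1 CPM in 3 libraries (0.0813), in a fit of only the groups compared (0.0523) and without the second NT+GV or the first or second PUT+GV library (adjusted p up to 0.0701), and its sign turned when libraries were scaled by total counts only (log2 fold change 0.050). ZC3H12C in Ecto was at -0.30 (adjusted p = 0.0602), with groups that did not overlap. A fall was called by DESeq2 (-0.36, adjusted p = 0.0113), in a fit of only the groups compared (-0.35, 1.37e-05) and without the third PUT+GV library (-0.42, 0.0222). Upper quartile factors (adjusted p = 0.0436), no filter (8.06e-05) and a filter of 1 CPM in 3 libraries (0.0290) called it too. RDX, on the other strand of ZC3H12C, fell with putrescine and bacteria in Ecto (-0.59, adjusted p = 9.10e-08), Endo (-0.19, adjusted p = 0.00116) and VK2 (-0.30, adjusted p = 2.16e-07). In all, 2, 2 and 5 of 5 members changed, where 56.3%, 56.1% and 60.4% of all genes did. The putrescine effect differed between lines for 1, 4 and 3 of 5 members (24.8%, 35% and 22.4% of all genes), counts that became 0 to 1, 2 and 2 when each replicate number was left out of all groups in turn, with 0 for Ecto and Endo without replicate 1 or 2.

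Without bacteria, putrescine lowered ZFP36L1 1.70-fold in Ecto, from 865.4, 878.8 and 899.3 to 518.8, 557.1 and 480.9 CPM (adjusted p = 4.55e-11), and 1.24-fold in VK2 (adjusted p = 3.10e-07). In Endo it stood at 1049 ± 9.08 CPM untreated and 1016 ± 15.2 CPM with putrescine (log2 fold change -0.05, adjusted p = 0.264). ZC3H12A rose 1.502-fold in Ecto and 1.17-fold in Endo (adjusted p = 1.51e-07 and 0.00437), and ZFP36 rose 1.37-fold and 1.25-fold (adjusted p = 0.000356 and 5.99e-05). In VK2, ZFP36 fell 1.12-fold (adjusted p = 0.00850, lost at 0.0505 without the first PUT+noGV library and at 0.0569 by total counts only), ZC3H12C rose 1.21-fold (adjusted p = 0.000608) and ZFP36L2 rose 1.39-fold (adjusted p = 1.26e-08). ZFP36L2 also rose in Endo, 1.28-fold (adjusted p = 0.00116). These are 3, 3 and 4 of 5 members, against 46.8%, 31.9% and 45% of all genes.

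The putrescine by G. vaginalis interaction was negative for ZFP36L1 in each line, at -0.33 in Ecto, -0.93 in Endo and -0.60 in VK2 (adjusted p = 0.00269, 4.65e-16 and 8.22e-09). That of ZC3H12A was negative in Ecto (-0.71) and Endo (-0.21) and positive in VK2 (0.43), with adjusted p = 5.25e-06, 0.0356 and 0.0142. The Endo call of ZC3H12A was lost without the first or second NT+GV, the third NT+noGV or the first or second PUT+noGV library (adjusted p up to 0.0947), and the VK2 call without the third NT+noGV library (adjusted p = 0.0518). ZFP36L2 was at -0.31 in Endo and -0.70 in VK2 (adjusted p = 0.0286 and 4.21e-08), the Endo call being lost without the first NT+GV, the third NT+noGV or the first or the third PUT+noGV library (adjusted p up to 0.0778). Both Endo calls, of ZC3H12A and of ZFP36L2, were also lost with upper quartile factors (adjusted p = 0.144 and 0.0726) and by total counts only (0.633 and 0.297), that of ZC3H12A with a filter of 1 CPM in 3 libraries (0.0583) and that of ZFP36L2 in a fit of only the groups compared (0.0802). In all, 2, 3 and 3 of 5 members had an interaction, against 26.4%, 34.8% and 27.6% of all genes.

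The 3 polyamine comparisons with bacteria share the NT+GV libraries, so their values are given side by side. ZFP36L1 stood at 825.2 CPM in Ecto NT+GV and 386.3, 664.7 and 654.3 CPM after PUT, SPD and SPM, at 834.2 and 422.8, 664.0 and 614.5 CPM in Endo, and at 1004 and 531.0, 909.4 and 795.9 CPM in VK2. It was the only member that fell with each polyamine in each line. ZC3H12A stood at 83.4 CPM in Ecto NT+GV and 76.6, 89.6 and 187.8 CPM after the same pretreatments.

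Markers of other cell types moved with the PUT+GV groups. The summed level of 6 leukocyte markers ran from 8.34 to 36.6 CPM in Ecto, 1.06 to 7.20 in Endo and 8.17 to 28.9 in VK2, and that of 6 fibroblast markers from 13.7 to 60.1, 24.97 to 77.9 and 22.1 to 68.5 CPM. The 4 endothelial markers summed to 1.62 to 4.54, 0.350 to 2.89 and 0.495 to 2.87 CPM. Each of these sums had its highest group mean in PUT+GV cells, in every line, and 0 marker genes of any list were at 0 in all libraries of a line. The 8 epithelial markers summed to 6434 to 11940 CPM in Ecto, 10440 to 19920 in Endo and 21670 to 34070 in VK2, so the labelled cell type was seen, and mitochondrial genes took 3.451% to 5.684% of counts. The part of these markers in the putrescine results was not tested.

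Most cytokine targets fell with putrescine in Ecto and Endo and rose with spermine in all 3 lines. With PUT+GV, of 16 cytokine targets tested in Ecto 11 fell and 2 rose, of 15 in Endo 11 fell and 1 rose, and of 15 in VK2 4 fell and 5 rose (3 and 9 when scaled by total counts only) (median log2 fold change -0.72, -0.55 and 0.15, against 0.07, 0.03 and 0.01 over all genes). Of all genes 56.3%, 56.1% and 60.4% were called in either direction, so the VK2 count is no result about the list. PTGS2, the inducible cyclooxygenase and an AU-rich mRNA, fell in each line: from 122.6 ± 21.2 to 42.2 ± 3.35 CPM in Ecto, from 221.7 ± 3.65 to 68.5 ± 3.28 in Endo and from 325.3 ± 21.5 to 123.0 ± 14.7 in VK2. In VK2, IL6 rose 3.20-fold, to 5.61 ± 0.588 CPM. Immediate early genes, the first to be transcribed after a stimulus, rose in 9 of 11 cases in each line, with FOS up 2.08-fold, 1.61-fold and 1.52-fold. NF-kB target and feedback genes fell in 7, 6 and 4 of 9 cases and rose in 1, 1 and 2 (in VK2, 3 fell and 5 rose when scaled by total counts only), and the 8 other targets rose in 2, 2 and 3 cases and fell in 5, 4 and 4.

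With SPM+GV, cytokine targets rose in 12 of 16 cases in Ecto (2 fell), in 13 of 15 in Endo (1 fell) and in 15 of 15 in VK2 (median log2 fold change 1.20, 0.91 and 2.28, against -0.02, -0.01 and -0.02 over all genes). Of all genes 56%, 43% and 58.3% were called in either direction. TNF, the classic target of ZFP36, rose from 0.673 ± 0.201 to 5.28 ± 0.790 CPM in Ecto, from 0.225 ± 0.130 to 1.43 ± 0.345 in Endo and from 0.272 ± 0.0903 to 6.96 ± 0.882 in VK2. IL6, a target of regnase-1, rose from 1.75 ± 0.0834 to 54.3 ± 10.1 CPM in VK2 and from 4.98 ± 0.259 to 13.2 ± 2.68 in Endo. NF-kB target and feedback genes rose in 7, 8 and 8 of 9 cases and fell in 1, 0 and 0. Immediate early genes rose in 10 of 11 cases in each line, with medians of 3.77, 2.67 and 3.48 on the log2 scale. EGR1, a zinc finger factor of that list, rose from 82.7 ± 5.41 to 2513 ± 507 CPM in Ecto, 43.8 ± 1.53 to 981 ± 154 in Endo and 16.4 ± 1.00 to 731.5 ± 119 in VK2.

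**Figure D4:**
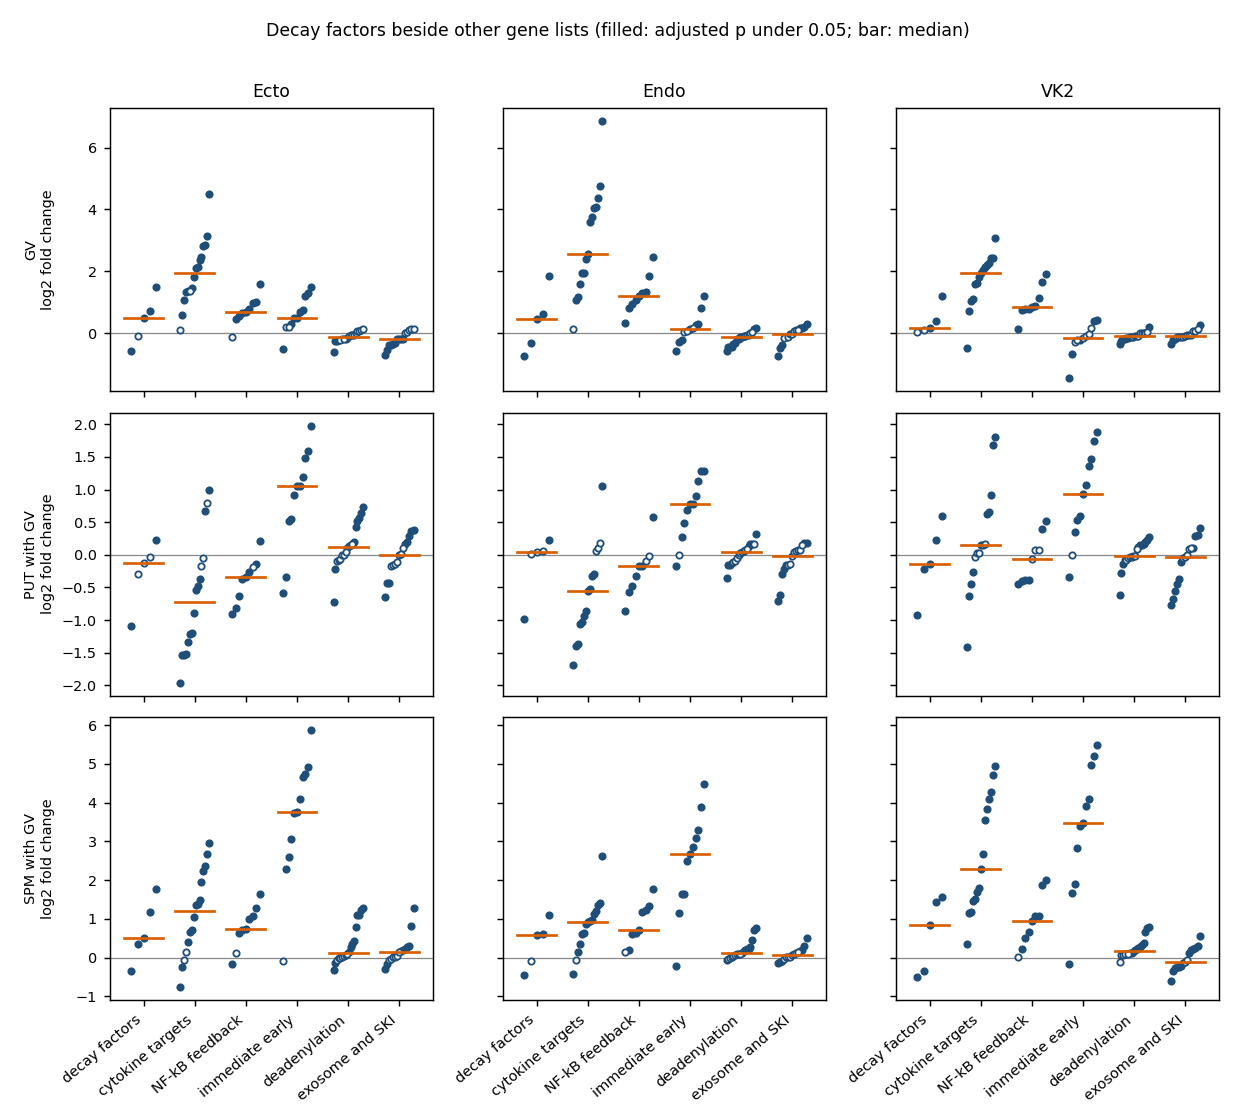
Log2 fold changes of the genes of 6 lists (decay factors, cytokine targets, NF-kB feedback, immediate early, deadenylation, and exosome and SKI complex) for G. vaginalis alone, putrescine with it and spermine with it in each line, filled where the adjusted p is under 0.05, with a bar at the median. Cytokine targets lie above 0 with G. vaginalis and with spermine, and mostly below 0 with putrescine in Ecto and Endo.

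With G. vaginalis alone, most immediate early genes had risen in Ecto, where 8 rose and 1 fell. They had been divided in Endo (5 and 3) and VK2 (2 and 3). DUSP1, the phosphatase that ends p38 signalling and is listed with the regulators of these factors, rose 3.53-fold, 1.66-fold and 6.16-fold with SPM+GV, and 1.58-fold, 1.61-fold and 1.56-fold with G. vaginalis alone. Of the 18 deadenylation genes 9 rose and 2 fell in Ecto, 9 and 0 in Endo and 13 and 0 in VK2 with SPM+GV, with medians of 0.12, 0.12 and 0.17 on the log2 scale. Of all genes 56%, 43% and 58.3% were called in either direction there, so the Ecto and Endo counts lie near their share. CNOT4, a ubiquitin ligase of the CCR4-NOT family, rose 2.16-fold, 1.65-fold and 1.72-fold. DCP1A, a decapping activator, rose 1.66-fold, 1.36-fold and 1.79-fold, and DIS3, a catalytic subunit of the exosome, rose 1.76-fold, 1.43-fold and 1.47-fold. N4BP1, the regnase relative, fell 1.44-fold, 1.09-fold and 1.38-fold, of which the Endo call was lost by DESeq2. With PUT+GV the deadenylation list had 8 up and 2 down, 4 and 4, and 7 and 3, and by total counts only 9 and 2, 11 and 1, and 12 and 1. Of all genes 56.3%, 56.1% and 60.4% were called with PUT+GV, so its main counts are no result about the list. In that comparison HNRNPD (AUF1), another protein that binds AU-rich elements, fell 1.63-fold, 1.33-fold and 1.29-fold, and ARID5A, which protects mRNAs from regnase-1, rose 1.69-fold, 1.31-fold and 1.72-fold.

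The remaining lists moved both ways, with a balance under putrescine that also shifted upward in Endo and VK2 by total counts only, and their counts are given as up and down in Ecto, Endo and VK2. They are read against the shares of all genes called in either direction, 56.3%, 56.1% and 60.4% in the putrescine comparison and 56%, 43% and 58.3% in the spermine comparison, and the putrescine counts of 6, 8 and 7 of the 10 decapping genes, for example, are no result about that list. Of the 10 decapping and 5′ decay genes these were 5 and 1, 4 and 4, and 4 and 3 with PUT+GV, and 7 and 2, 5 and 0, and 5 and 2 with SPM+GV. Of the 15 exosome and SKI genes they were 5 and 3, 2 and 5, and 4 and 6 with PUT+GV, and 7 and 2, 4 and 3, and 6 and 7 with SPM+GV. Regulators of the decay factors gave 7 and 2, 2 and 3, and 2 and 4 with PUT+GV, and 5 and 1, 5 and 2, and 4 and 3 with SPM+GV. The 9 other binding proteins gave 4 and 4, 2 and 5, and 2 and 4, then 2 and 1, 1 and 2, and 3 and 1. Regnase relatives gave 2 and 1, 0 and 1, and 1 and 1 with PUT+GV and 1 and 3, 0 and 1, and 0 and 2 with SPM+GV. With SPM+GV the 8 other targets gave 2 and 3, 4 and 4, and 4 and 4.

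The genes whose pattern was most like each member were found over the 24 group means, centred within each line, among 11967 genes. For ZC3H12A these were BIRC3 (Pearson's r 0.983), NFKBIE (0.981) and CXCL1 (0.975), and for ZC3H12C KLF10 (0.966), CXCL1 (0.965) and CXCL8 (0.964). For ZFP36 they were SLC25A25 (0.964), PRDM2 (0.954) and ODR4 (0.953), for ZFP36L1 ASCC2 (0.944), NDUFS7 (0.943) and ERGIC1 (0.943), and for ZFP36L2 GATAD2B (0.947), RICTOR (0.925) and UCHL1 (0.922). Among the members, ZC3H12A and ZC3H12C had an r of 0.964, ZC3H12A and ZFP36 0.80, ZFP36L1 and ZFP36L2 0.499, and ZC3H12A and ZFP36L2 -0.717. The points share their libraries and scaling, so these values are a description without a test.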

How the data were processed

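Total RNA-seq of 72 libraries was analysed from the deposited table of estimated counts per gene, given as whole numbers. Per the labels and the methods, the authors prepared rRNA-depleted, stranded libraries with molecular identifiers, sequenced them on an Illumina NovaSeq, and quantified them with Salmon on GENCODE 44, naming GRCh38.p13, before tximeta and DESeq2. How identifiers and strand entered the counting is not given in the sources used here, and isoform estimates can split reads of overlapping genes. Of the 62266 genes 20278 had no symbol.

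Counts were tested in R 4.3.3 with edgeR 4.0.16: the filterByExpr filter, TMM scaling and the robust quasi-likelihood test (glmQLFTest) in a fit per line over 24 libraries (19459, 18741 and 18474 genes tested in Ecto, Endo and VK2) and, for contrasts between lines, in a fit over 72 (21195 genes). P-values were Benjamini-Hochberg adjusted over all genes of a fit, and an adjusted p under 0.05 was called. A change of n-fold is the fitted fold. CPM are TMM-scaled within a line, and CPM per kb divide by the annotated transcript of 1747 to 8776 bases. DESeq2 1.42.0, other scalings and filters, only the groups compared, a replicate block and leaving out each library were alternatives. The fits were tested on simulated data. The members and gene lists were chosen with earlier results of these data known. In lists, up to 3 of the largest called changes per list, comparison and line could be named. Library totals set the counting error, and no intervals beyond those of the fits are given.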

Additional observations from a re-analysis of the deposited data

Results flagged for a closer look

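Responses that differed between the lines by the edgeR quasi-likelihood test over all 72 libraries (adjusted p under 0.05) are listed here as log2 differences, with no explanation. The response to G. vaginalis differed between Ecto and Endo by -0.35 for ZC3H12A and 0.25 for ZFP36L1. Between Ecto and VK2 it differed by 0.31 for ZC3H12A, 0.35 for ZC3H12C, 0.42 for ZFP36, -0.24 for ZFP36L1 and -0.59 for ZFP36L2, and between Endo and VK2 by 0.66 for ZC3H12A, 0.38 for ZFP36, -0.49 for ZFP36L1 and -0.76 for ZFP36L2.

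The effect of putrescine with bacteria differed between Ecto and Endo by -0.40 for ZC3H12C. Between Ecto and VK2 it differed by -0.77 for ZC3H12A, -0.57 for ZC3H12C, 0.32 for ZFP36 and -0.22 for ZFP36L1, and between Endo and VK2 by -0.59 for ZC3H12A, 0.36 for ZFP36 and 0.26 for ZFP36L2. The effect of spermine with bacteria differed between Ecto and Endo by 1.13 for ZFP36 and 0.54 for ZFP36L2. Between Ecto and VK2 it differed by -0.37 for ZC3H12A, -0.47 for ZC3H12C, 0.33 for ZFP36 and 1.01 for ZFP36L2, and between Endo and VK2 by -0.41 for ZC3H12A, -0.80 for ZFP36 and 0.47 for ZFP36L2.

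Many of these calls did not hold on leaving out 1 of the 3 replicate numbers from all groups. That setting has fewer libraries per group, so a call can be lost with little change in its log2 difference. Without replicate 3, ZC3H12A with G. vaginalis stood at -0.35 between Ecto and Endo, as in the main fit (adjusted p = 0.164). Other estimates shrank, such as ZC3H12C with G. vaginalis between Ecto and VK2 without replicate 2 (0.25 against 0.35). Lost without any of the 3 was ZFP36L2 under putrescine between Endo and VK2 (adjusted p = 0.0586 to 0.127). Lost without 2 of the 3 were, between Ecto and VK2, ZC3H12C with G. vaginalis, putrescine and spermine, ZFP36 with putrescine and spermine and ZFP36L1 with putrescine, and, between Ecto and Endo, ZC3H12C with putrescine. These ZC3H12C calls held without replicate 3, which takes out the outlying Ecto SPD+noGV library (adjusted p = 0.000157, 1.42e-08, 9.13e-07 and 5.22e-05). ZC3H12C was then also called between Endo and VK2 with G. vaginalis (0.42, adjusted p = 0.000627), putrescine (-0.26, 0.0332) and spermine (-0.33, 0.00535). With spermine it was called between Ecto and Endo too (-0.28, 0.0166). Lost without 1 of the 3 were ZC3H12A between Ecto and each other line, ZFP36 between VK2 and each other line and ZFP36L1 between Ecto and each other line with G. vaginalis, ZFP36 with putrescine between Endo and VK2, and ZC3H12A with spermine between Ecto and VK2. ZFP36 with spermine between Ecto and VK2 was also lost with upper quartile factors (adjusted p = 0.0523), total counts only (0.145) and no filter (0.122). By total counts only, calls were lost too for ZFP36 with putrescine (0.0626) and ZFP36L1 with G. vaginalis (0.0876) between Ecto and VK2 and for ZFP36L2 with putrescine between Endo and VK2 (0.0765).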

How the results depend on the processing

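Of 134 called member values, 115 kept direction and call under each other scaling, filter, tool and model tried. The exception in direction was ZFP36 with PUT and G. vaginalis in VK2, at 0.050 on the log2 scale (adjusted p = 0.358) when scaled by total counts only, a setting that moved the median of all genes by up to 0.187. Another scaling moves every gene of a contrast by nearly the same amount, so changes of about that size depend on it, as do the directions of the lists of decay machinery. List counts under other scalings were computed after seeing the data. Cytokine targets and immediate early genes kept their predominant direction in each line under every scaling and filter tried with SPM+GV, as did cytokine targets with G. vaginalis. The cause was not tested for any change here. The main fits did not pair samples by replicate number. Same-numbered libraries had deviations correlated from -0.059 to 0.136 (median 0.0195), and 0 of 84 group pairs had all 3 above 0.1. These correlations over all genes cannot exclude a pairing, as they include counting error. With a replicate block, SPD without G. vaginalis called 241 genes in Endo against 34, and the SPD interaction 1449 against 647. With only 3 libraries a group, changes well below those reported could be missed.

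Counts of members called are given as Ecto, Endo, VK2. Asking for a fold of 2 as well gave 1, 1, 1 for G. vaginalis, 1, 0, 0 for PUT with it, 0, 0, 0 for SPD with it, 2, 1, 2 for SPM with it and 2, 0, 2 for SPM against SPD with it, and 0, 0, 0 for PUT, for SPM and for SPM against SPD without it. The same rule was set on all 19459, 18741 and 18474 genes tested, with counts given as up and down. It gave 1119 and 140, 1308 and 431, and 322 and 91 for G. vaginalis. For PUT with it the counts were 1527 and 400, 1292 and 222, and 1735 and 316. SPM with it gave 2145 and 476, 717 and 376, and 1507 and 540. SPM against SPD with it gave 1847 and 691, 572 and 698, and 1243 and 377. For the members, the interactions became 0, 0, 0 for PUT, 0 in Endo for SPD and 2, 0, 2 for SPM. Their contrasts between lines (Ecto to Endo, Ecto to VK2, Endo to VK2) became 0 for the G. vaginalis and PUT responses. They were 1, 1, 0 for SPM and 2, 2, 0 untreated. Over all genes, the SPM interaction gave 1556 and 175, 449 and 126, and 938 and 133. Of the 21195 genes tested between lines, the SPM response gave 780 and 163, 607 and 691, and 163 and 700. Untreated levels gave 2645 and 2829, 2640 and 2763, and 2242 and 2276.

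Fitting only the groups compared gave 4 for PUT with G. vaginalis in Ecto, 2 and 0 for SPD with it in Ecto and VK2, 1 for SPD without it in VK2, 2 for SPM without it in Ecto, 0 and 2 for SPM against SPD without it in Ecto and Endo, and 4 for the PUT interaction in Ecto. Total counts only gave 5 and 3 for PUT with G. vaginalis in Endo and VK2, 2 for SPD with it in Endo, 1 for SPM against SPD without it in VK2, 1 for the PUT interaction in Endo, 2 for the PUT response of Ecto to Endo and 3 untreated for Ecto to VK2. Upper quartile factors gave 1 for the PUT interaction in Endo and 2 for the PUT response of Ecto to Endo. No filter gave 2 for SPD with G. vaginalis in VK2, 2 for SPM against SPD without it in Endo and 1 for the SPD interaction in Ecto. A CPM of at least 1 in 3 libraries gave 1 for the SPD interaction in Ecto and 2 for the PUT response of Ecto to Endo, and DESeq2 gave 1 for the SPD interaction in Ecto. The replicate block gave 2 for SPM against SPD without G. vaginalis in Endo, 1 for the SPD interaction in Ecto and 2 for the PUT response of Ecto to Endo.

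Leaving out each library in turn gave 4 to 5, 5 and 3 for G. vaginalis, 1 to 2, 2 and 3 to 5 for PUT with it, 1, 1 to 2 and 0 to 2 for SPD with it and 4 to 5, 4 and 5 for SPM with it. Without it the counts were 3, 3 to 4 and 3 to 4 for PUT, 0, 0 and 0 for SPD and 1, 0 to 2 and 1 to 2 for SPM. SPM against SPD gave 3 to 4, 4 and 5 with and 1, 0 to 1 and 1 to 2 without G. vaginalis, and the interactions 2, 1 to 3 and 2 to 3 for PUT, 0 to 2, 1 and 0 for SPD and 4, 4 and 5 for SPM. Between lines, leaving out a replicate number gave 1 to 2, 3 to 4 and 4 for G. vaginalis, 0 to 1, 2 and 2 for PUT, 0, 0 to 1 and 0 for SPD, 2 to 3, 2 to 3 and 3 to 4 for SPM and 5, 4 to 5 and 3 to 4 untreated.

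Over all genes, the counts below were read at an adjusted p under 0.05 alone, without the fold of 2. The other scalings, filters, tool and models moved them by over 1.5 times only in comparisons that involve SPD. SPD without G. vaginalis called 59, 34 and 85 genes, with 222 and 115 in Ecto and Endo by DESeq2, 1073, 141 and 164 without a filter, 90 and 241 in Ecto and Endo with the block and 2, 140 and 216 in the groups compared. SPD with G. vaginalis called 2555, 2611 and 2349, and 4288, 1484 and 1431 in the groups compared. The SPD interaction called 609, 647 and 65, with 1064 (Ecto) and 132 (VK2) by DESeq2, 1228 and 197 in the same lines without a filter, 1449 (Endo) and 157 (VK2) with the block and 201 and 377 (Ecto, Endo) in the groups compared. SPM against SPD without G. vaginalis called 3979 in Ecto and 942 in the groups compared. Between lines, the SPD response of Ecto to Endo called 153, 396 without a filter and 261 with the block, and of Endo to VK2 240, 366 and 398.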

Other observations

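Genes next to the members were read in the same fits. ZC3H12A-DT, a long noncoding RNA that starts beside ZC3H12A and runs the other way, rose with G. vaginalis in Ecto (log2 fold change 0.59, adjusted p = 0.00894), Endo (0.39, 0.0193) and VK2 (0.46, 0.0088). With spermine before the bacteria it fell in Ecto (-0.46, adjusted p = 0.0322), where ZC3H12A rose, and was at -0.14 in Endo and 0.19 in VK2. Its counts ran from 32 to 211 per library. A noncoding gene inside ZFP36L1 on the same strand had 0 to 105 counts, with a median of 9. With spermine before the bacteria, this noncoding gene rose in Ecto (2.42, adjusted p = 0.00104), Endo (7.66, 0.0283) and VK2 (8.07, 0.00972), where ZFP36L1 fell. With putrescine before them it rose in VK2 (6.72, 0.0396) and was not called in Ecto (1.07, 0.126) or Endo (6.42, 0.0822). Its counts are low, and its part in the ZFP36L1 results was not tested. An antisense gene to ZFP36L2 had 0 to 16 counts.

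With Spearman's rho in place of Pearson's r over the same 24 centred group means, the gene most like ZC3H12A was again BIRC3 (0.957), and those most like ZC3H12C, ZFP36, ZFP36L1 and ZFP36L2 were NFKBIA (0.941), NUFIP2 (0.904), ERGIC1 (0.972) and UBTD2 (0.923). These are descriptions over points that share libraries.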
